A study of Rattus norvegicus with 12 samples.

Results

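DNA replication and mitosis genes were followed in the liver of 12 male obese Zucker rats, 6 fed a control diet and 6 fed a diet with 5% PSC, a fungal product grown biotechnologically on a side stream of agriculture (an oyster mushroom, by the title of the series). The set holds 36 genes given by name as textbook components of both programmes, drawn up when earlier results of these data were known, and 34 of them had a transcript cluster that the platform annotation gives exactly 1 symbol. They are 34 of 18166 genes measured in all, each taken from the cluster with the highest mean over the 12 arrays. Rrm1 and Birc5 were not analysed here. Of the 34, 11 belong to DNA replication, 19 to mitosis and 4 to the control of G1.

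All rats of both diets were homozygous for the fa allele of the leptin receptor gene (Crl:ZUC-Leprfa), a model of obesity in which leptin signalling is defective. They entered the trial at 5 to 6 weeks of age and were killed on day 29, after 4 weeks on a diet with PSC or a control diet without it of comparable energy and crude nutrients. The 6 rats per diet were taken at random from feeding groups of 12, and rats were housed as cage pairs, so that any cage mates among those profiled are not fully independent. Each array (Affymetrix Rat Gene 2.0 ST) held liver RNA of 1 rat, and values are log2 signals, so that a difference of 1 is a doubling. Array medians over all rows lay between 4.71 and 4.85, the arrays correlated at 0.987 to 0.995 across genes, and their number limits the precision. The 6 measured hepatocyte markers, Alb and Ttr among them, lay at or above percentile 97.2 of all genes by signal.

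A cell that divides first licenses its origins with Cdc6, Cdt1 and the Mcm2 to Mcm7 helicase under the drive of E2F factors, then copies its DNA with the sliding clamp Pcna and nucleotides from Rrm2 and Tyms. Later it switches on the mitotic genes (Cdk1 and its cyclins, the Aurora and Polo kinases, spindle motors and the anaphase-promoting complex), which are held silent in resting cells by the DREAM complex. In adult liver most hepatocytes rest, and Cdkn1a, the p53-induced inhibitor p21, together with cyclin D1 (Ccnd1), sets whether they leave that state. In a whole tissue sample, fewer cycling cells and less RNA per cycling cell cannot be told apart.

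Promoters of the genes were searched for motifs known from cell cycle genes, and a few are shown so that the motifs can be read beside the values of their genes. RefSeq windows (rat assembly GRCr8, 250 bases before to 50 after the start, 300 bases in all) were at hand for 25 of the 34 genes. Both strands were searched for the cell cycle homology region (CHR: TTTGAA or TTCGAA), the CCAAT box (CCAAT) and the E2F site (TTTCCCGC, TTTGGCGC, TTTCGCGC or TTTGCCGC). No motif matched in the Cdkn1a window. In the stretches below, the last 120 bases before the start are written 5′ to 3′ on the gene's strand, with matches in capitals. In Mki67 a CHR match and a reversed CCAAT box overlap by the letters they share.
Mki67, chr1:199952594-199952713, minus strand: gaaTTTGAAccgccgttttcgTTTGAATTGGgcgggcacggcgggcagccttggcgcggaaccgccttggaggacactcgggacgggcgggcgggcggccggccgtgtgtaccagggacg
Top2a, chr10:84473094-84473213, minus strand: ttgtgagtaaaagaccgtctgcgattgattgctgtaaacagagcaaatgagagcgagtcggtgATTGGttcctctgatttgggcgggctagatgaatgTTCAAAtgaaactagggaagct
Cdc20, chr5:137255800-137255919, minus strand: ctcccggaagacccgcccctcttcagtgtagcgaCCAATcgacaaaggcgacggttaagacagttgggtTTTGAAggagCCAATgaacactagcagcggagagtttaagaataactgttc
Mcm5, chr19:13488693-13488812, plus strand: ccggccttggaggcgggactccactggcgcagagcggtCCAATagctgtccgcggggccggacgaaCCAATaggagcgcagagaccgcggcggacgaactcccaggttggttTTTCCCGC
Tyms, chr9:120776084-120776203, minus strand: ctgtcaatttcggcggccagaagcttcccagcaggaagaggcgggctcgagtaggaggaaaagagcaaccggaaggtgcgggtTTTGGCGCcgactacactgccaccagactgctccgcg

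Of 15 mitosis promoters, 10 held a CHR match (66.7%), against 19.5% of all 27457 promoters, and 9 held both a CHR match and a CCAAT box (60.0% against 7.83%). Only Cdk1 among these 15 held an E2F match (6.67%). Of 8 replication promoters, 7 held an E2F match (87.5% against 2.25% of all promoters), the exception being Pcna, and 2 held a CHR match, Mcm2 and Mcm7. The CCAAT box was common in both, in 12 of 15 mitosis and 5 of 8 replication promoters (80.0% and 62.5% against 37.7% of all promoters). A match describes the letters of these windows and is not a measured site. In wider lists of the same programmes a CCAAT box stood in 69.0% of mitosis and 51.4% of replication promoters, with a CHR match in 32 of 42 other mitosis promoters (76.2%) and 5 of 37 other replication promoters (13.5%), and an E2F match in 2 of 42 (4.76%) and 14 of 37 (37.8%).

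The PSC diet was accompanied by a fall of 1 of the 34 genes, Cdkn1a, whereas none of the 30 genes of replication and mitosis passed the test (limma with Benjamini-Hochberg adjustment over all genes, adjusted p below 0.05). Of all genes 2.6% passed, with 1.89% of all genes lower in PSC-fed rats and 0.716% higher, so that 1 of 34 is near the background. At an unadjusted p below 0.05 the count was 3 of 34, all lower in PSC-fed rats (Cdkn1a, Ccnd1 and Mcm5), beside 10.1% of all genes lower and 9.02% higher. Differences were negative for 27 of 34 members and for 46.1% of all genes. These members vary together from rat to rat, so that their signs are not separate observations.

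**Figure D1:**
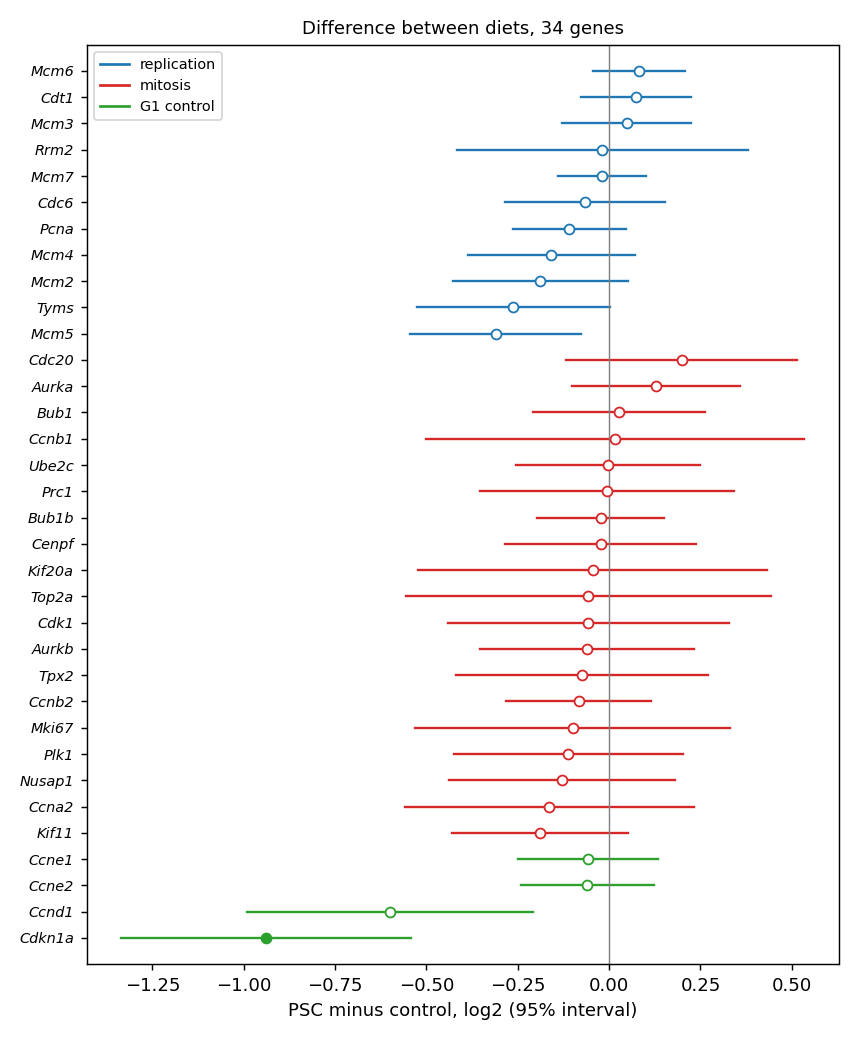
Difference between diets (PSC minus control, log2) for 34 genes with 95% intervals from limma, n = 6 rats per diet; a filled point marks an adjusted p below 0.05. Cdkn1a at -0.94 and Ccnd1 at -0.60 lie apart, whereas the intervals of all mitosis genes include 0.

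Cdkn1a encodes p21, which binds cyclin-dependent kinases and Pcna and halts the cycle. Its log2 signal (transcript cluster 17753672) was 7.57, 7.85 and 8.26 in the lowest, median and highest control, and 6.23, 6.94 and 7.43 in the PSC-fed rats. All 6 PSC-fed rats lay below every control, a separation shown by 1.48% of all genes in this direction, 0.71% in the other and 2.19% in either. The mean went from 7.86 ± 0.27 to 6.92 ± 0.47 (SD, n = 6), a difference of -0.94 (SE 0.19, 95% interval -1.34 to -0.54, limma adjusted p = 0.0206), which is 1.92-fold. PSC replicate 6 was the lowest rat and PSC replicates 2 and 4 came nearest to the controls, at 7.40 and 7.43. The gene lost the threshold without control replicate 1 (difference -0.86, adjusted p = 0.0560) and kept it in the other 11 fits that left out 1 array.

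Ccnd1 encodes cyclin D1, the partner of Cdk4 and Cdk6 that begins the inactivation of the retinoblastoma protein. Controls ranged from 6.67 over a median of 6.97 to 7.90, and PSC-fed rats from 6.22 over 6.53 to 7.06. Of the 6 PSC-fed rats, 5 lay below every control and PSC replicate 4, at 7.06, lay among them. The difference of -0.60 (SE 0.18, 95% interval -0.99 to -0.21) had an unadjusted p of 0.00533 and did not pass over all genes (limma adjusted p = 0.0930). It passed only without PSC replicate 4, at -0.70 and an adjusted p of 0.0400. The E cyclins, which follow cyclin D at the entry to S phase, had values of -0.058 for Ccne1 (adjusted p = 0.757) and -0.060 for Ccne2 (adjusted p = 0.735).

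**Figure D2:**
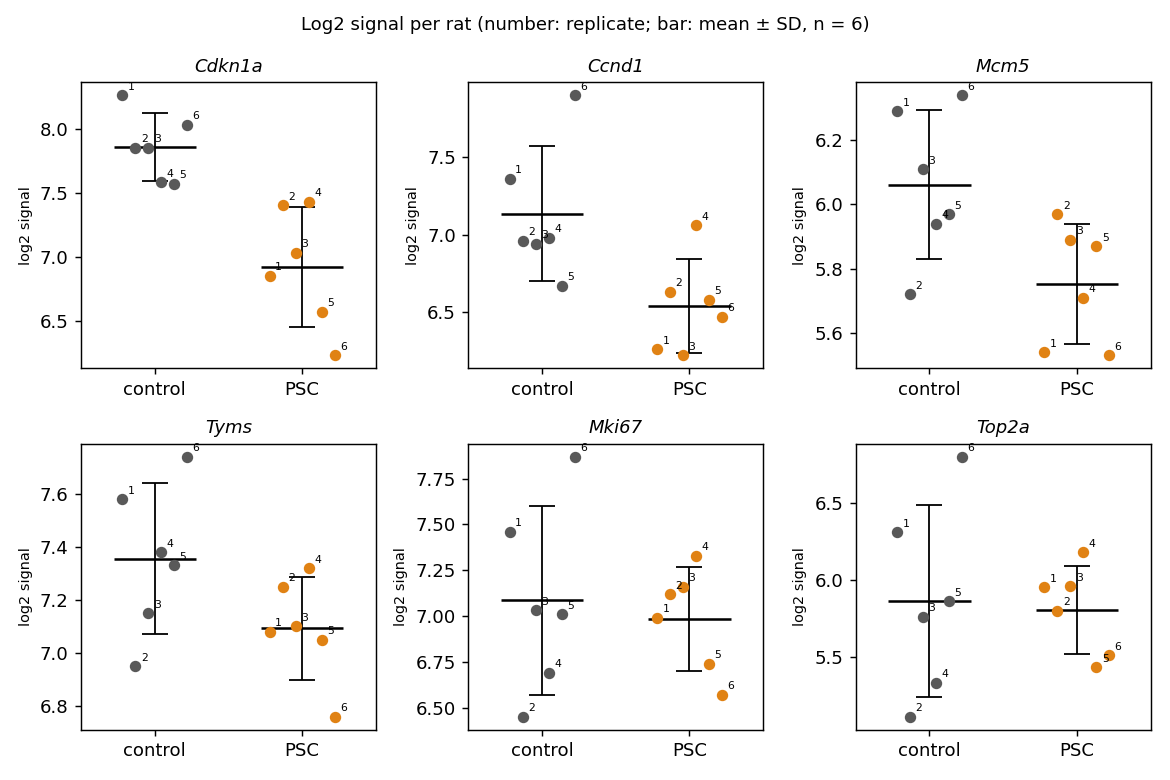
Log2 signal of 6 genes in every rat (points, numbered by replicate) with mean ± SD, n = 6 per diet, on separate vertical scales that do not start at 0. Diets are separate for Cdkn1a, overlap in 1 PSC-fed rat for Ccnd1 and overlap widely for Mki67 and Top2a, where control replicate 6 is highest.

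Among the licensing and helicase genes, Mcm5 had the largest difference. This subunit of the replicative helicase ranged from 5.72 to 6.34 in controls (median 6.04) and from 5.53 to 5.97 in PSC-fed rats (median 5.79), with 3 PSC-fed rats below every control. Its difference of -0.31 (SE 0.11, unadjusted p = 0.0129) did not pass over all genes (adjusted p = 0.142). Mcm2 ranged from 4.90 over 5.25 to 5.61 in controls and from 4.88 over 5.09 to 5.24 in PSC-fed rats (difference -0.19, SE 0.11, adjusted p = 0.379). Mcm4 ranged from 5.52 over 5.78 to 6.13 and from 5.35 over 5.72 to 5.81 (-0.16, SE 0.11, adjusted p = 0.440). In both the diets overlapped, and the other helicase subunits had differences nearer to 0, at -0.018 for Mcm7, 0.048 for Mcm3 and 0.082 for Mcm6. The intervals were narrow for Mcm7 (-0.14 to 0.10) and Mcm6 (-0.04 to 0.21), whose rats differed least. The loaders Cdc6 and Cdt1 had -0.065 and 0.073.

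Among fork and nucleotide genes, Tyms, the thymidylate synthase, ranged from 6.95 to 7.74 in controls (median 7.36) and from 6.76 to 7.32 in PSC-fed rats (median 7.09). Its difference was -0.26 (SE 0.12, unadjusted p = 0.0520, adjusted p = 0.267), and 1 PSC-fed rat lay below every control. Pcna, the sliding clamp, ranged from 6.55 over 6.68 to 6.84 in controls and from 6.32 over 6.61 to 6.74 in PSC-fed rats, with a difference of -0.11 (SE 0.07, adjusted p = 0.439). Rrm2, the regulated subunit of ribonucleotide reductase, ranged from 5.24 over 6.06 to 6.42 in controls and from 5.58 over 5.86 to 6.41 in PSC-fed rats. Its difference of -0.018 (SE 0.19, adjusted p = 0.969) had an interval from -0.42 to 0.38.

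The mitosis genes as a group had a median difference of -0.057, beside -0.065 for the replication genes and 0.013 over all genes tested. The replication median minus the mitosis median was -0.0083, and it was not tested. It ran from -0.090 without control replicate 6 to 0.038 without PSC replicate 1, so that its sign depended on single rats, and it was 0.0030 after quantile normalization. Without control replicate 6 the mitosis median turned positive, to 0.075. Differences ran from -0.31 to 0.08 for the 11 replication genes (8 negative) and from -0.19 to 0.20 for the 19 mitosis genes (15 negative). The 95% interval lay within 0.5 of 0 for 9 replication and 13 mitosis genes, beside 16770 of all 18166 genes. The other intervals, those of Mcm5 and Tyms as well as of mitosis genes, reach further, so that changes of that size remain possible there.

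Cdk1, the kinase that drives entry into mitosis, ranged from 4.20 to 5.20 in controls and from 3.97 to 4.96 in PSC-fed rats (difference -0.057). Its partner cyclin B1 (Ccnb1) ranged from 4.08 over 4.69 to 5.49 in controls and from 4.19 over 4.86 to 5.25 in PSC-fed rats (0.017, SE 0.24, adjusted p = 0.977). Cyclins A2 (Ccna2) and B2 (Ccnb2) had -0.16 and -0.083. The proliferation antigen gene Mki67 ranged from 6.45 over a median of 7.02 to 7.87 in controls and from 6.57 over 7.06 to 7.33 in PSC-fed rats, with a difference of -0.10 (SE 0.20, 95% interval -0.53 to 0.33, adjusted p = 0.819). Here the PSC-fed rats lay inside the range of the controls. Top2a, the topoisomerase that untangles sister chromosomes, ranged from 5.11 over 5.81 to 6.80 in controls and from 5.43 over 5.88 to 6.18 in PSC-fed rats (-0.057, SE 0.23, adjusted p = 0.916), again inside the range of the controls.

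Of the kinases and checkpoint genes, Aurka had 0.13, Aurkb -0.060, Plk1 -0.11, Bub1 0.027 and Bub1b -0.023. The anaphase-promoting complex genes Cdc20, its activator, and Ube2c, its ubiquitin-conjugating enzyme, had 0.20 and -0.0033. Kif11, the motor that separates spindle poles, had the most negative value of the 19 mitosis genes. It ranged from 4.97 over 5.39 to 5.65 in controls and from 4.85 over 5.21 to 5.34 in PSC-fed rats (-0.19, SE 0.11, adjusted p = 0.377), which overlapped. Kif20a, a motor of cytokinesis, ranged from 4.69 over 5.54 to 6.30 and from 4.95 over 5.42 to 5.89 (-0.045, SE 0.22, adjusted p = 0.932), the second range lying inside the first. Nusap1, Tpx2, Cenpf and Prc1, which bind spindle microtubules or kinetochores, had -0.13, -0.073, -0.023 and -0.0067.

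The rats of a diet differed widely in the mitosis genes. The SD within diets had a median of 0.295 log2 units for the mitosis genes and 0.196 for the replication genes, beside 0.142 over all genes tested. For 13 of 19 mitosis genes it lay in the top 10% of all genes, and for all 19 above the median of all genes. Ccnb1, Top2a, Kif20a and Mki67 had 0.503, 0.485, 0.463 and 0.415, at percentiles 99.6, 99.5, 99.4 and 99.0. Mcm7 and Mcm6, with 0.0747 and 0.0817, lay at percentiles 6.58 and 9.50, while Rrm2, Tyms and Mcm2 were the most variable replication genes (0.383, 0.244 and 0.218). Top2a differed 3.23-fold between the highest and lowest control, and the diet means differed 1.04-fold.

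**Figure D3:**
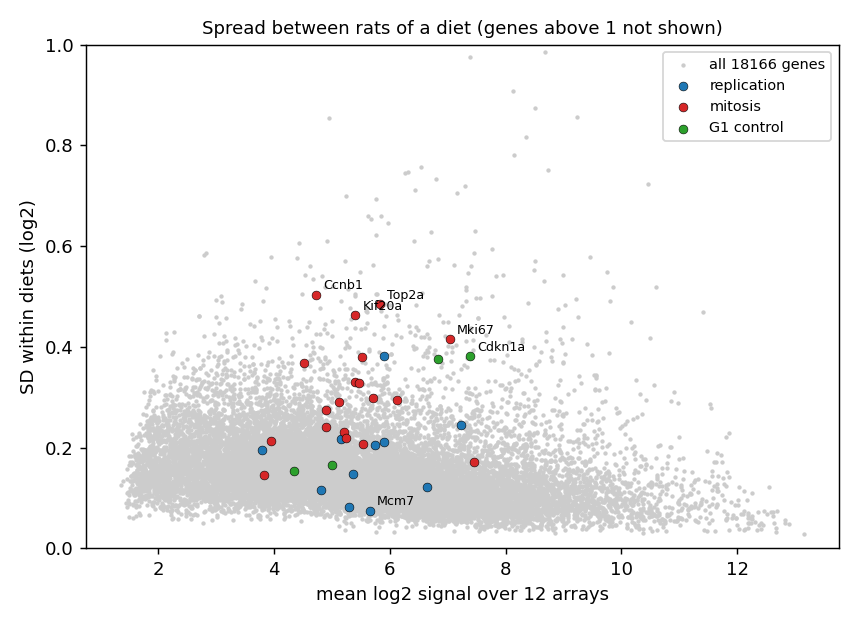
SD within diets against mean log2 signal for all 18166 genes (grey) and the 34 genes (coloured by role); 2 genes lie above the plotted range. Mitosis genes lie high for their signal, at a median SD of 0.295 against 0.142 over all genes, and Mcm7 lies low at 0.0747.

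The same rats were high or low for nearly the whole mitotic set. Control replicate 6 held the highest control value for all 19 mitosis genes, and control replicate 2 the lowest for 13. Among PSC-fed rats, replicate 4 was highest for 14 of 19 and replicates 6 and 5 were lowest for 12 and 7. Averaged over the 19 genes, control replicate 6 lay 0.54 above and control replicate 2 0.38 below the control mean, and PSC replicate 4 lay 0.25 above and PSC replicate 6 0.28 below the PSC mean. For the 11 replication genes the same controls stood at the ends, replicate 6 at 0.21 above and replicate 2 at 0.19 below. Among PSC-fed rats replicate 6 was again lowest, at -0.062 from the PSC mean, whereas replicate 3 was highest, at 0.10 above it. PSC replicate 4 was also the highest PSC-fed rat for Ccnd1 and Cdkn1a, and PSC replicate 6 the lowest for Cdkn1a.

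**Figure D4:**
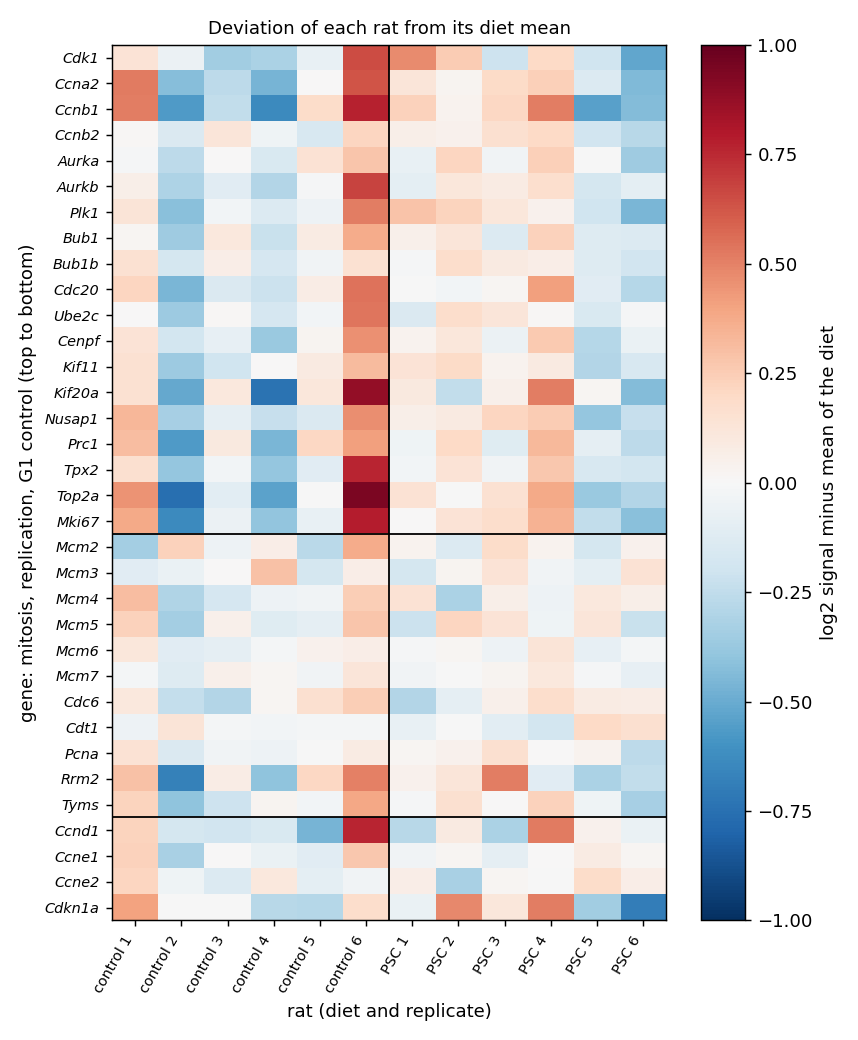
Deviation of each rat from the mean of its diet (log2, colour) for 19 mitosis, 11 replication and 4 G1 control genes, with 6 rats per diet. The column of control replicate 6 is high and that of control replicate 2 low throughout the mitosis block, and the replication block is paler and less uniform.

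Correlations of these deviations over the 12 arrays, given as a description, had a median of 0.81 over the 171 pairs of mitosis genes and were above 0.5 in 170 of them. Over all pairs of genes the median was 0.0030, and 7.58% of pairs were above 0.5. Arrays share 1 normalization, and each diet contributes 6 rats. Replication genes were less uniform, with a median of 0.26 over their 55 pairs, and of 0.52 with the mitosis genes. Without control replicate 6 the mitosis median was 0.73, and it was 0.88 among controls and 0.72 among PSC-fed rats alone, where 16.2% and 17.4% of all gene pairs were above 0.5.

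Replication genes divided by how closely they followed the mitosis genes. The median correlation with the 19 mitosis genes was 0.78 for Tyms, 0.74 for Rrm2, 0.69 for Mcm7, 0.67 for Mcm6, 0.66 for Mcm5 and 0.62 for Pcna. It was 0.43 for Cdc6, 0.40 for Mcm4, 0.09 for Mcm2, -0.18 for Mcm3 and -0.55 for Cdt1, the licensing factor that is degraded once S phase begins. Tyms and Mcm5, whose E2F matches are printed above, and Mki67, Top2a and Cdc20, with their CHR matches, were among the genes that moved from rat to rat together. So were Mcm6 and Mcm7, with E2F matches, and Pcna, without one. Mcm2, Mcm3 and Cdt1, which also held E2F matches, were not. A link between motif and correlation was not tested. Mitosis genes with no CHR match in their window followed the set as well, with 0.84 for Ccnb1, 0.82 for Kif20a, 0.81 for Bub1, 0.74 for Kif11 and 0.72 for Aurka. Mki67 and Top2a had the highest values of the mitosis genes, 0.88 each.

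Mitosis genes outside the 34 mostly behaved likewise. Of 45 measured other mitosis genes, 35 had a median correlation above 0.5 with the 19, beside 7 of 42 other replication genes. Among all genes a value of 0.51, that of Pold2, stood at percentile 93.2. The list medians were 0.68 for other mitosis genes and 0.24 for other replication genes. Of the 15 genes on the array that came closest to the 19, 8 stood in the list of other mitosis genes, led by the spindle gene Hmmr (0.88) and the kinesin gene Kif2c (0.87); these 2 were named after their values were seen. Of the control genes Ccnd1, Ccne1 and Cdkn1a had 0.60, 0.60 and 0.61 and Ccne2 -0.18. Within diets Cdkn1a was thus higher in rats with higher mitosis genes.

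The spread of the mitosis genes was larger among controls, with a median SD of 0.353 against 0.219 in PSC-fed rats, and was larger in controls for 16 of 19 genes, beside 38.4% of all genes. Without control replicate 6 the control median was 0.215, with 14 of 19 genes larger in controls, and without control replicates 2 and 6 it was 0.219, with 9 of 19, beside 33.6% of all genes. These are the controls at the ends of the range, whose removal lowers the SD by construction, and the PSC-fed rats at the ends were kept. Which diet spreads more was not tested. The SD within diets of the mitosis genes stayed at a median percentile of 90.5 without control replicate 6 and of 85.1 without both. Replication genes also had a larger median SD in controls, 0.220 against 0.150, with 9 of 11 genes larger in controls. That count was 9 without control replicate 6 and 6 without control replicates 2 and 6.

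Of the marker lists, the red cell precursor markers (3 genes) had the same highest and lowest rat as the mitosis genes in both diets. Control replicates 6 and 2 lay at 0.25 and -0.17 from the control mean. PSC replicates 4 and 6 lay at 0.28 and -0.20 from the PSC mean. Of the other rats, only control replicate 4 and PSC replicate 3 lay on the same side of the diet mean for both sets. PSC replicate 5 lay at 0.20 for these markers and at -0.20 for the mitosis genes. The median correlation with the mitosis genes was 0.56 for Slc4a1, 0.14 for Ahsp and 0.12 for Tfrc. Control replicate 6 lay above the control mean for macrophage markers (by 0.32, 11 genes) and near it for lymphocyte (0.016, 12 genes), hepatocyte (0.0031, 6 genes) and stellate cell markers (-0.055, 9 genes). PSC replicate 4 lay below its diet mean for macrophage markers (-0.23) and above it for stellate cell markers (0.26). Control replicate 1, with mitosis genes 0.20 above the control mean, had macrophage markers 0.64 below it. The part of these cell types in the mitotic signal was not tested.

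No gene of the wider lists of replication and mitosis passed between the diets. Of 42 other replication genes 0 passed in limma after adjustment, with 4 lower and 2 higher at an unadjusted p below 0.05 and a median difference of -0.0092. Over all genes 2.6% passed, and 10.1% were lower and 9.02% higher at the unadjusted p. Their smallest p-values belonged to Pold2, a subunit of DNA polymerase delta (-0.21, SE 0.07, adjusted p = 0.0981), Orc3, of the origin recognition complex (-0.24, adjusted p = 0.113), and Rrm2b, the p53-induced ribonucleotide reductase subunit (-0.30, adjusted p = 0.128). Of 45 other mitosis genes 0 passed in limma, with 1 lower and 0 higher at an unadjusted p below 0.05 and a median of 0.0017. Trip13, a checkpoint ATPase, had -0.15 (adjusted p = 0.186), and Knl1 and Ncapg2, of the kinetochore and of condensin II, had -0.31 and -0.13.

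Among 34 measured cell cycle regulators, Cdkn2b fell and Cdkn2a rose, which is 2 of 34 beside 2.6% of all genes. Cdkn2b encodes the Cdk4 and Cdk6 inhibitor p15, and ranged from 6.21 to 6.66 in controls and from 5.76 to 6.29 in PSC-fed rats, of which 5 lay below every control. Its difference was -0.42 (SE 0.09, limma adjusted p = 0.0318). Cdkn2a, the neighbouring gene for p16 and ARF, ranged from 3.99 to 4.28 in controls and from 4.25 to 4.62 in PSC-fed rats, of which 5 lay above every control, with a difference of 0.29 (SE 0.07, adjusted p = 0.0463). When each array was left out in turn, Cdkn2b missed the threshold in 9 of 12 cases and Cdkn2a in 11, at adjusted p as high as 0.0717 and 0.0999. Over all transcript clusters and after quantile normalization Cdkn2b had adjusted p = 0.0569 and 0.0591, and Cdkn2a 0.0785 and 0.107. Wee1, the kinase that restrains Cdk1, had -0.37 (adjusted p = 0.0939). At an unadjusted p below 0.05, 5 of the 34 regulators were lower and 2 higher, beside 10.1% and 9.02% of all genes, and the median of the list was -0.021.

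Other targets of p53 leaned the same way as Cdkn1a. Of 15 measured targets 2 fell, Fas and Phlda3, and 0 rose, beside 1.89% and 0.716% of all genes. Both were also without overlap between the diets, as were 1.48% of all genes in this direction. The list was drawn up with the fall of Cdkn1a known. In all, 13 of 15 had negative values with a median of -0.19, beside 0.013 over all genes tested. At an unadjusted p below 0.05, 7 of 15 were lower and 0 higher, beside 10.1% and 9.02% of all genes. Within diets their correlations with Cdkn1a ran from -0.44 for Aen to 0.72 for Perp, with 0.55 for Fas and 0.53 for Phlda3. The signs of these targets are thus not all separate observations. Fas, the death receptor gene, ranged from 6.47 to 6.96 in controls and from 6.12 to 6.42 in PSC-fed rats, without overlap, with a difference of -0.495 (SE 0.09, limma adjusted p = 0.0133) that passed in all 12 fits without 1 array. Phlda3, an inhibitor of Akt, ranged from 6.50 to 6.85 and from 5.76 to 6.44, also without overlap, with -0.43 (SE 0.11, adjusted p = 0.0453). It missed the threshold in 9 of those 12 fits (highest adjusted p 0.101), and had adjusted p = 0.0859 after quantile normalization. Gadd45a, a growth arrest gene, had -0.60 (SE 0.18, adjusted p = 0.0816), with PSC replicates 2 and 3, at 7.69 and 7.28, among the controls. The p53 regulator and target Mdm2 had -0.19 (adjusted p = 0.251), whereas Plk2 and Pmaip1 had 0.12 and 0.080.

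**Figure D5:**
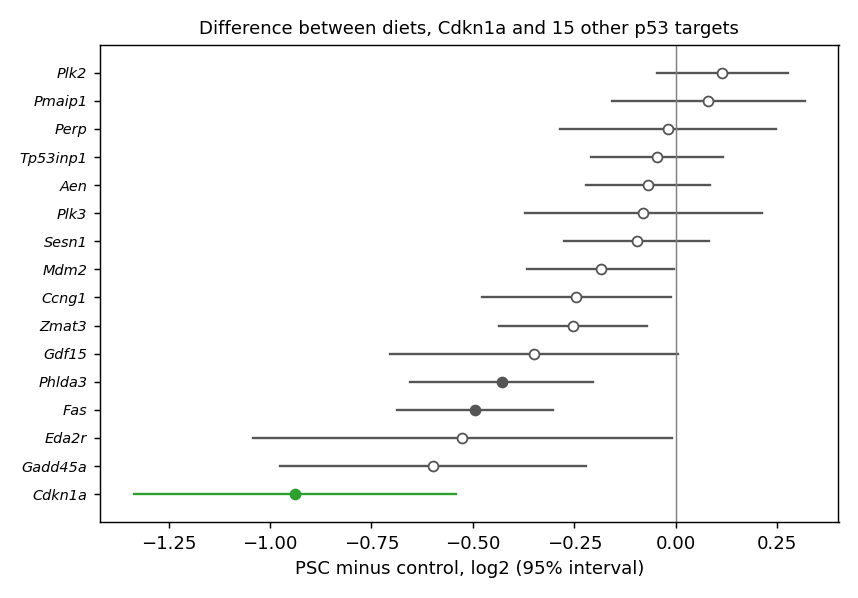
Difference between diets (PSC minus control, log2) with 95% intervals from limma for Cdkn1a (green) and 15 other p53 targets, n = 6 rats per diet; filled points mark an adjusted p below 0.05. Cdkn1a, Fas and Phlda3 are filled, and all but Plk2 and Pmaip1 lie below 0.

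Cell type markers moved with the diet beside the falls of Cdkn1a and Fas. Of 9 stellate cell and fibroblast markers 4 fell (Dcn, Col1a2, Tagln and Col3a1), beside 1.89% of all genes, and their mean centred level ranged from 0.097 to 0.35 in controls and from -0.29 to 0.046 in PSC-fed rats. Of 11 macrophage markers 1 rose, Cd163, beside 0.716% of all genes, with ranges of -0.85 to 0.11 and -0.019 to 0.33, and of 12 lymphocyte markers 1 rose, Nkg7, with ranges of -0.19 to 0.0050 and -0.0033 to 0.17. None of the 6 hepatocyte markers or of the 3 red cell precursor markers passed in limma. At an unadjusted p below 0.05, 6 of 9 stellate cell and 2 of 3 red cell precursor markers were lower (10.1% of all genes), 7 of 11 macrophage and 7 of 12 lymphocyte markers were higher (9.02% of all genes), and 0 of 6 hepatocyte markers were either. The part of these shifts in the falls was not tested.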

How the data were processed

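Per the submitters' processing notes, the authors summarised 1 array per rat by RMA in Affymetrix Expression Console, and the deposited values are on a log2 scale. No version or filter is known here. RMA equalises arrays and compresses small changes of dim genes. Of 30347 rows, 18511 had 1 symbol, 575 several and 11261 none, which left 18166 genes. Diets were compared with limma 3.58.1 (R 4.3.3) by a two-sided test, p-values were adjusted by Benjamini-Hochberg across every gene tested, and the threshold was 0.05. The script was checked on simulated data. Spread and correlations used deviations from the diet mean. Promoters came from RefSeq (GRCr8).

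Members and lists were chosen with earlier results of these data known. Full values are given for members that passed, the 8 with the smallest p, the 3 replication and 3 mitosis genes with the largest SD, Ccnd1 and Cdkn1a. Of each wider list, genes that passed and the 3 with the smallest p are named. Other named genes are members or illustrate a count. Titles number rats 1 to 6 in both diets, and same-numbered rats did not deviate together. Other settings are given after the results.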

Additional observations from a re-analysis of the deposited data

Results flagged for a closer look

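In 4 of the 68 groups of 6 arrays formed by the 34 genes and both diets, the highest or lowest array stood far from the others for the size of the group; chance flags about 1 group in 20. Cdt1 was 4.91 in control replicate 2, with the other controls between 4.73 and 4.76. Pcna was 6.32 in PSC replicate 6, with the others between 6.59 and 6.74. Aurkb was 5.60 in control replicate 6, with the others between 4.62 and 4.98. Ccne2 was 3.99 in PSC replicate 2, with the others between 4.31 and 4.50. None of these 4 genes passed between the diets.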

How the results depend on the processing

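The limits are 6 rats per diet, a scale that compresses dim genes and members that vary together. The number of members that passed was 1, 0 with the replicate block, 2 at an adjusted p below 0.1, and 0 to 2 with 1 array left out (0 without control replicate 1, 2 without PSC replicate 4). Deviations of same-numbered rats correlated at -0.15 to 0.11 over all genes, and pairing in smaller sets of genes was not tested. With the block, genes called went from 473 to 94, and adjusted p was 0.0558 for Cdkn1a, 0.0566 for Fas, 0.0731 for Phlda3, 0.0919 for Cdkn2b and 0.0965 for Cdkn2a. Other settings also ended calls. Cdkn2a had an adjusted p of 0.111 with cyclic loess, 0.0505 with a variance trend, 0.0611 with array weights and 0.137 without PSC arrays 2 and 5. Without those arrays Cdkn2b had 0.0846 and Phlda3 0.0580, and Phlda3 had 0.0754 with cyclic loess and 0.0757 over all transcript clusters. Gadd45a passed with array weights (0.0463). With 1 array left out, 3 to 5 members had an unadjusted p below 0.05 and 1 to 2 did not overlap.

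Differences near 0 changed sign. Rrm2 was 0.014 after quantile normalization, 0.0042 after cyclic loess, 0.055 as the mean of its clusters and 0.030 without PSC arrays 2 and 5. The second transcript clusters of Mcm3, Mcm4, Ccnb2 and Rrm2 had -0.012, -0.023, 0.048 and 0.13. The clusters used for these genes had 0.048, -0.16, -0.083 and -0.018. Ccnb1 was -0.031 and -0.033 after quantile normalization and cyclic loess. Top2a was 0.038 and Kif20a 0.0125 without PSC arrays 2 and 5, and Kif20a was 0.014 with array weights. With 1 array left out Rrm2 ran from -0.15 to 0.083, Ccnb1 from -0.11 to 0.17, Top2a from -0.21 to 0.13 and Kif20a from -0.19 to 0.13. The cause was not tested. The median of the mitosis genes ran from -0.12 to 0.075 and that of the replication genes from -0.14 to -0.015.

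Chosen after seeing the data, subsets of arrays gave a median correlation of mitosis genes of 0.733 without control replicate 6, 0.727 without it and PSC replicate 4, 0.879 in controls and 0.723 in PSC-fed rats. The median SD among controls was 0.215 without control replicate 6 and 0.219 without control replicates 2 and 6.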
